A study of Homo sapiens with 24 samples.

Results

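The promoters of 35 genes known as transcriptional targets of p53 were described from H3K4me3, trimethylation of histone H3 at lysine 4, a mark that sits at the start sites of genes that are active or poised. For each gene, the regions of the deposited H3K4me3 table that overlapped 2 kb either side of any start site of the gene were taken, and the one whose mean normalized count was highest gave the promoter value. Every one of the 35 genes had such a region. Of 20020 protein-coding genes in GENCODE release 44, 15085 had one, on 12999 distinct regions out of 97545 in the table. The cells were EndoC-βH3, a human beta cell line carrying hTERT and the SV40 large T antigen as excisable transgenes, with a Cre recombinase that 4-hydroxytamoxifen activates. Samples were non-senescent cells (4 control samples, transgenes in place) and senescent cells (4 samples after 3 weeks of 4-hydroxytamoxifen), each of 500000 cells, and the labels gave all of them a WT genotype. The line is an immortalized culture derived from fetal pancreas. The control state itself is shaped by the T antigen, which holds p53 and Rb inactive.

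The value for a region was 1 mean over the H3K4me3 samples of both states, so non-senescent and senescent cells could not be set apart, no value per sample could be given, and neither the depth of a sample nor a replicate error is known. Everything below therefore describes where and how strongly the mark stood at these promoters over both states together, and neighbours in an order of levels cannot be told apart by any error. Because a wide region collects more reads, levels of different genes were compared as mean normalized count per kb of region, and the count of the whole region is given as the value that chose it.

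p53 is a transcription factor that DNA damage and other stresses stabilize. It binds as a tetramer to a pair of decamer half-sites, each read by a dimer, and its targets halt the cell cycle, repair DNA, retune metabolism, start apoptosis or feed back on p53 itself. Loss of p53 activity lets damaged cells keep dividing, and p53 together with Rb holds cells in senescence. In beta cells, as in other cells, p53 is kept low by the ubiquitin ligase MDM2 and its relative MDM4.

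A search of the reference sequence (hg38) within 2 kb of the canonical start for pairs of the p53 half-site consensus, with the central C and G of each half-site intact, at most 2 mismatches over the pair and a spacer of 0 or 1 base, matched 14 of the 35 genes (40.0%) and 837 of all 15085 promoters (5.55%). The consensus is its own reverse complement, so both strands were read at once. No mismatch at all was left in the matches of 2 members, DDB2 and ZMAT3, against 6 genes of all 15085. Several of these genes are named p53 targets in part because such sites were found in them, so the count describes the members and is no independent support, and a match is a stretch of letters and not a bound site. The 12 matches with a sequence to show are printed in the direction of the gene, with the half-sites in capitals and the spacer and 4 bases on either side in lower case, because they are the stretches that p53 could read next to the H3K4me3 described below.
DDB2, chr11:47214975-47215003, plus strand: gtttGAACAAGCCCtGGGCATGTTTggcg
ZMAT3, chr3:179070184-179070211, minus strand: cataAAACAAGTCCAGACATGCCTaggc
CCNG1, chr5:163437922-163437949, plus strand: gtgaGCACAAGCCCAGGCTAGTCCgagg
MDM2, chr12:68808919-68808946, plus strand: agctGGTCAAGTTCAGACACGTTCcgaa
FAS, chr10:88991305-88991332, plus strand: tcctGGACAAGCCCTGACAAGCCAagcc
AEN, chr15:88621302-88621329, plus strand: agccGGGCTTGCCCGGGCATGTGGgagc
BAX, chr19:48955209-48955236, plus strand: ccccGGGCAGGCCCGGGCTTGTCGcccg
PMAIP1, chr18:59899545-59899572, plus strand: ttctGGGCTTGTTTACCCAAGTCTctaa
SPATA18, chr4:52051953-52051980, plus strand: ggaaGGACATGTGTGTACATGCCCttgt
BTG2, chr1:203303638-203303665, plus strand: ggtcACGCATGTTCAGGCATGCATggaa
CD82, chr11:44564757-44564784, plus strand: ccagGGGCCAGTCCAGGCAAGCTGgggc
GADD45B, chr19:2478017-2478044, plus strand: cgagAGACTTGGTTGAACTTGGTTggtc
The other matches, in GADD45A and TNFRSF10B, are named only.

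Most matches lay in marked chromatin, in the members as in the matched genes overall. In 9 of the 14 matched members the match stood inside one of the gene's own H3K4me3 regions, as did those of 469 of the 837 matched genes overall. The 9 were AEN, BAX, CCNG1, DDB2, FAS, GADD45A, MDM2, PMAIP1 and SPATA18. In the other 5 the match lay outside, but in 4 of them by under 100 bases: 8 bases for TNFRSF10B, 50 bases for ZMAT3, 65 bases for CD82 and 71 bases for BTG2. Only in GADD45B was it farther, at 681 bases, in exon 4 within the 3' UTR. Of the 14 matches, 8 were intronic, 4 were upstream of the start, 1 was in a 5' UTR and 1 in a 3' UTR, and 10 were downstream of the canonical start. Distances to a region and these placements were not worked out for the other matched genes, so no background share can be set beside them. The DDB2 match was centred 15 bases downstream of the start, in exon 1, and the AEN match 24.5 bases upstream of its start. In MDM2 the match was centred 755.5 bases downstream, in intron 1, and in FAS 520.5 bases downstream, also in intron 1.

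The search depended on how much departure from the consensus was allowed. With 3 mismatches, 20 members (57.1%) and 27.2% of all promoters matched. The match stood inside an own region in 17 members (48.6%) and in 2289 of the 4110 matched genes overall (15.2% of all promoters). BBC3, TP53I3, FDXR, PERP, PPM1D and TRIAP1 entered the list of matched members with 3 mismatches. With spacers of 0 to 13 bases, 21 members (60.0%) and 32.4% of all promoters matched. Within 1 kb of the start, 10 members (28.6%) and 2.70% of all promoters did. The looser searches thus brought the members and the background closer.

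**Figure D1:**
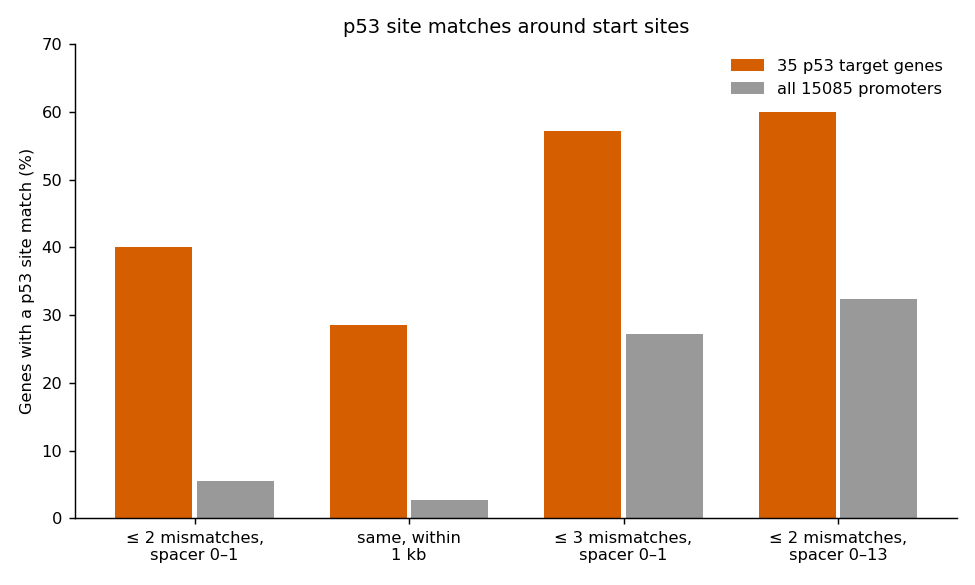
Share of genes with a p53 site match (%, vertical axis) under 4 search settings, for the 35 p53 target genes (orange bars) and all 15085 protein-coding promoters with a region (grey bars). At most 2 mismatches and a spacer of 0 or 1 base gave 40.0% of members and 5.55% of all promoters, and 3 mismatches gave 57.1% and 27.2%.

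Genes with and without a match carried the mark at overlapping levels. Among the 14 with a match the median was 15.7 per kb (range 8.50 to 31.3), and among the 21 without one it was 22.1 per kb (range 3.23 to 37.8). By whole-region count, 7 of the 14 and 14 of the 21 were above the median of all promoters.

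As a group, the p53 targets sat near the middle of all promoters. Their median was 20.3 per kb (quartiles 13.1 and 26.1) against 19.0 per kb over all promoters (quartiles 12.3 and 26.8), and 18 of the 35 (51.4%) were above the median of all promoters, where 50.0% of all promoters are by construction. By whole-region count the median was 58.9 against 49.2, and 21 of 35 (60.0%) were above the median. Within the group the levels spread over a wide range. With TNFRSF10A left out, whose value cannot be told from background reads, it was 6.46-fold per kb (PERP over PHLDA3) and 84.4-fold by whole-region count (BTG1 over TNFRSF10B). Both folds still rest on low values. The whole-region counts of PHLDA3 and TNFRSF10B were 6.78 and 5.88, beside a median of 4.40 over all regions. Per kb, 2 members, PERP and MDM4, reached the 90th percentile of all promoters, and 2, TNFRSF10A and PHLDA3, were below the 10th. The differences between the roles below are of values without replicate error, and no test was made.

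**Figure D2:**
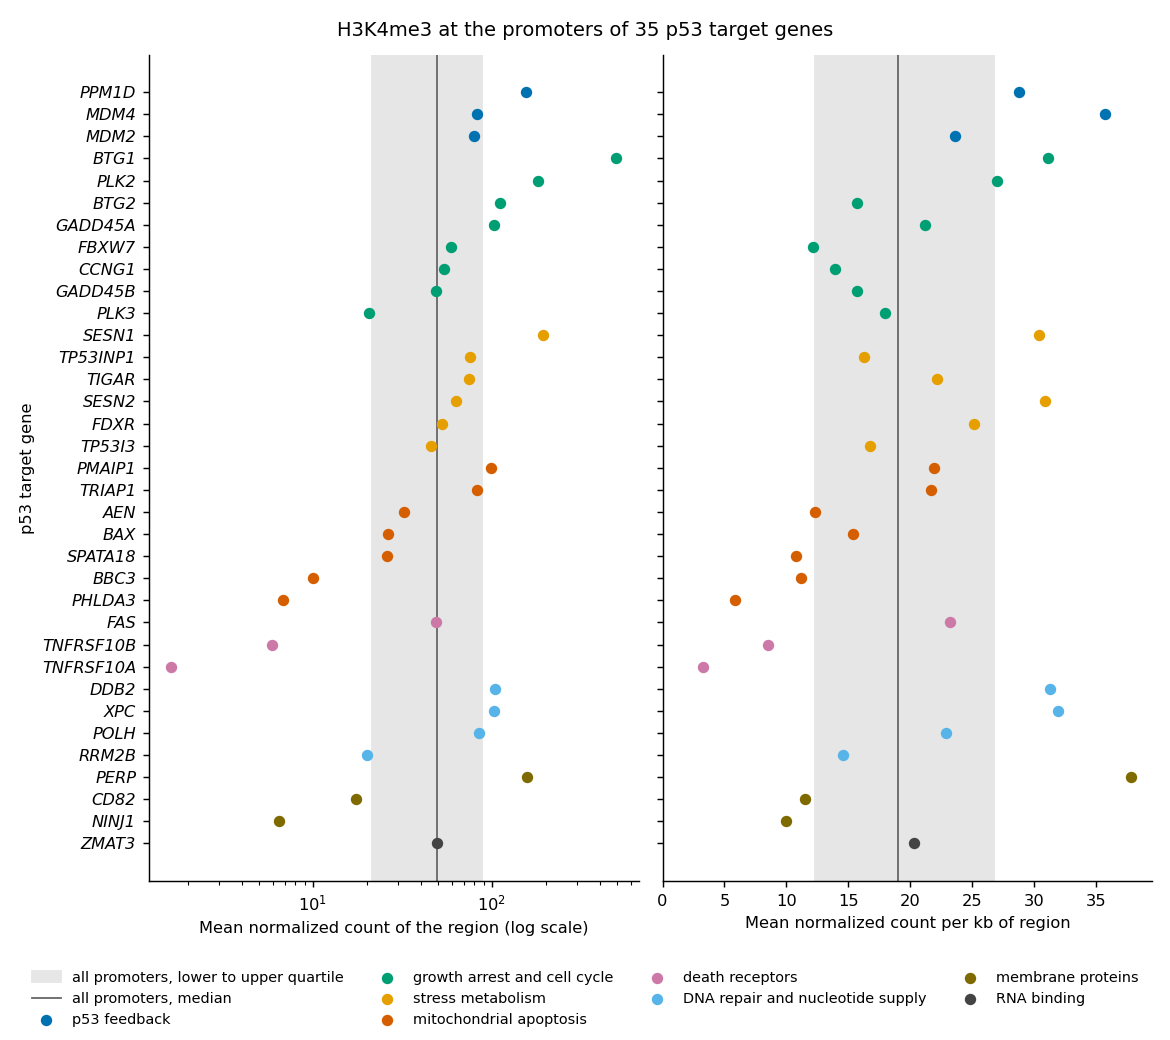
Mean normalized H3K4me3 count of each member's promoter region (left, log scale) and the same per kb of region (right), one point per gene, coloured by role; the grey band runs from the lower to the upper quartile of all 15085 promoters and the line marks their median. The 3 feedback genes lie right of both lines, and TNFRSF10A, at 1.61 per region and 3.23 per kb, lies farthest left in both panels.

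The genes that restrain p53 were all above the middle. MDM4, which binds p53 and blocks its activation, had 35.7 per kb, above 90.9% of all promoters. PPM1D, a phosphatase that removes activating phosphates from p53 and its kinases, had 28.8 per kb. MDM2, the ligase that sends p53 for degradation, had 23.6 per kb. All 3 were above the median of all promoters on both scales. For MDM4 this depended on the choice of region: the one whose centre was nearest any annotated start had a whole-region count of 4.26, which put MDM4 at the 12.1st percentile in place of the 71.8th. Their regions covered the canonical starts, and that of MDM2 (chr12:68806830-68810204) ran from -1347 to 2027 bp relative to the start, over the start of exon 1 and the intronic match printed above. It held 12 of the 17 distinct annotated starts of the gene.

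Genes of growth arrest and the cell cycle held the 3 widest regions. BTG1, an antiproliferative cofactor of mRNA deadenylation, had a region of 15955 bp (chr12:92132138-92148093) with a count of 497, rank 9 of 15085 promoters. Per kb it stood at 31.1, the 84.5th percentile, so its rank by whole-region count went with its width. The region spanned the whole BTG1 transcript of 5569 bp and ran 8140 bp past its end. The noncoding genes BTG1-DT and LINC01619 also start in this region, so its count cannot be credited to BTG1 alone. BTG2, the relative of BTG1 that p53 induces, was also covered from end to end, by a region of 7080 bp at 15.7 per kb. GADD45A, a stress sensor that inhibits CDK1 and binds PCNA, was the other member covered whole, by 4845 bp at 21.2 per kb. Such full coverage was seen in 3 of 35 members (8.57%) and in 255 of all promoters (1.69%), and the 3 are short genes of 3134 to 5569 bp. PLK2, a polo-like kinase of the stress response, came close, with 88.9% of its span in a region of 6730 bp at 26.98 per kb. The rest of this group was lower per kb. PLK3 had 18.0 per kb, GADD45B 15.7 per kb, CCNG1, a cyclin that recruits the phosphatase PP2A to MDM2, 13.9 per kb, and FBXW7, the substrate receptor of an SCF ubiquitin ligase that degrades cyclin E and MYC, 12.2 per kb.

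Genes of stress metabolism stood mostly above the middle. SESN2 and SESN1, the sestrins that restrain mTORC1, had 30.8 and 30.4 per kb. FDXR, which passes electrons to mitochondrial cytochromes P450, had 25.1 per kb, and TIGAR, which diverts glucose into the pentose phosphate pathway, had 22.1 per kb. TP53I3, a quinone oxidoreductase, and TP53INP1, a stress protein of autophagy and apoptosis, were lower at 16.8 and 16.3 per kb. Thus 4 of 6 were above the median of all promoters per kb, and 5 of 6 by whole-region count. With the region whose centre was nearest a start, TIGAR moved from the 67.7th to the 34.0th percentile by whole-region count and SESN2 from the 60.2nd to the 46.2nd.

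The apoptosis genes split. PMAIP1, which encodes the BH3-only protein NOXA, had 21.9 per kb and a whole-region count of 99.1, and TRIAP1, which protects cells from apoptosis, had 21.7 per kb. The other 5 of the 7 in this group were below the median of all promoters on both scales. BAX, the pore-forming effector of the mitochondrial outer membrane, had 15.4 per kb, AEN, an apoptosis nuclease, 12.3 per kb, and SPATA18, which acts in mitochondrial quality control, 10.7 per kb. BBC3, which encodes the BH3-only protein PUMA, had 11.2 per kb in a region of 892 bp that began 712 bp downstream of its canonical start. PHLDA3, a repressor of AKT, had 5.85 per kb.

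Of the death receptors, FAS stood above the median per kb and the TRAIL receptors were low. FAS had 23.2 per kb and a whole-region count of 48.9. TNFRSF10B (DR5) had 8.50 per kb in a region of 692 bp that began 417 bp downstream of its start. A noncoding gene starts inside this region and no annotated start of TNFRSF10B does, so the value may belong to that gene. TNFRSF10A (DR4) had 3.23 per kb in a region of 500 bp, the narrowest width among all promoter regions, from 1130 to 1630 bp downstream. Its whole-region count was 1.61, the lowest of the members. None of the 3 was above the median of all promoters by whole-region count.

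DNA repair genes were above the median per kb apart from RRM2B. XPC and DDB2, which recognize damage in nucleotide excision repair, had 31.9 and 31.3 per kb, the 85.8th and 84.9th percentiles. POLH, the polymerase that copies past ultraviolet lesions, had 22.8 per kb. RRM2B, the p53-induced subunit of ribonucleotide reductase, had 14.6 per kb. This depended on the choice of region. Its next region had 24.5 per kb, above the median of all promoters, with whole-region counts of 19.6 against 20.1. The membrane proteins were far apart. PERP, a desmosome protein and apoptosis effector, had 37.8 per kb, the highest of all 35 members (92.9th percentile), while CD82, a tetraspanin, had 11.5 per kb and NINJ1, which ruptures the plasma membrane of dying cells, had 9.97 per kb. ZMAT3, an RNA-binding regulator of splicing, was at 20.3 per kb, close to the median of all promoters.

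The marked regions lay mainly over and downstream of the starts. In 27 of 35 members (77.1%) the region chosen covered the canonical start, against 64.1% of all promoters, and in these 27 the median share of the region lying downstream was 66.6%, against 60.4% over 9669 promoters. In the other 8 (BBC3, FBXW7, NINJ1, PLK3, SESN2, TNFRSF10A, TNFRSF10B and TP53INP1) it stood to one side. In TP53INP1, BBC3 and NINJ1 a gap between regions spanned the start itself, and in SESN2, RRM2B and FBXW7 a gap lay beside it. The TP53INP1 regions ended at -147 bp and resumed at 564 bp relative to the start, with whole-region counts of 57.7 and 75.2 and nearly equal densities of 16.7 and 16.3 per kb. In SESN2 the region over the start had 19.1 per kb and the region from 893 to 2943 bp downstream had 30.8 per kb. In RRM2B the region upstream of the start, from -1401 to -602 bp, was denser than the one over it, 24.5 against 14.6 per kb, with almost the same whole-region counts of 19.6 and 20.1. The rule takes the highest region, so for these genes other than FBXW7 the promoter value is 1 side of a divided signal.

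**Figure D3:**
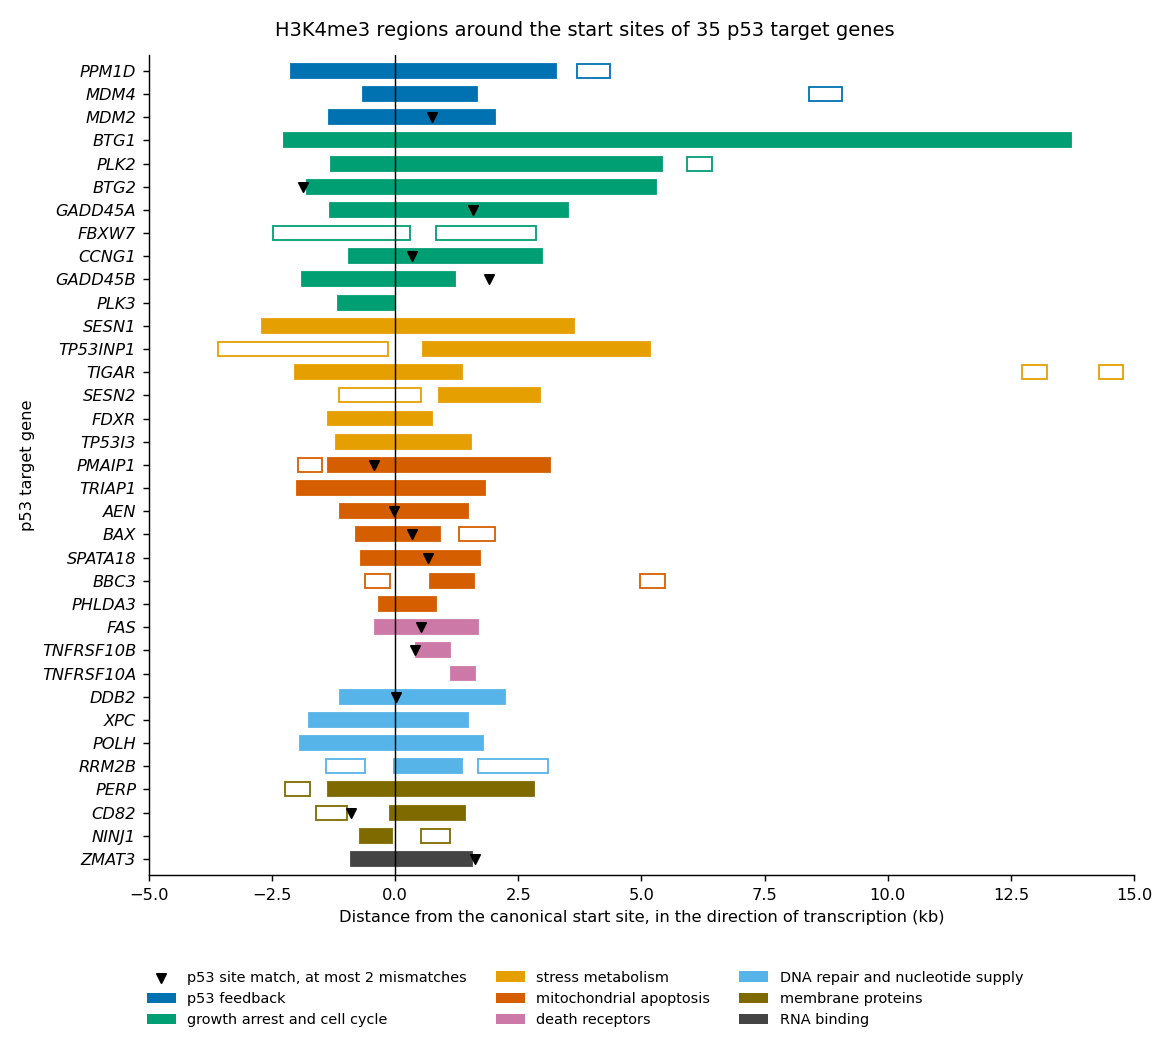
H3K4me3 regions of each member by distance from its canonical start (kb, in the direction of transcription), filled for the region that gave the promoter value, open for the gene's other regions, with triangles for p53 site matches of at most 2 mismatches. The BTG1 region runs to 13708 bp downstream, and the filled FBXW7 region, 182832 bp or more downstream, and other regions beyond the axis are not drawn.

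More than 1 region was linked to 16 members (45.7%), near the share of all promoters (44.5%). In 4 of these 16 the next region reached at least 50% of the highest by whole-region count. They were FBXW7, RRM2B, SPATA18 and TP53INP1. SESN1 and SESN2 fell just short, at 48.1% and 49.9%. The matching share over all promoters with more than 1 region was not computed. FBXW7 was an extreme case. Its highest region (chr4:152348418-152353260) lay 182832 bp or more downstream of the canonical start, within the gene, over 4 alternative starts, and had 12.2 per kb, whereas the region over the canonical start had 16.0 per kb and a count of 44.3. With the region whose centre was nearest a start, FBXW7 moved from the 57.2nd to the 43.4th percentile by whole-region count. SESN1 also had an alternative start with its own region, 83823 bp or more downstream, at 23.5 per kb beside 30.4 per kb at the main one. In TIGAR the canonical start carried 22.1 per kb and an upstream start 13.3 per kb.

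A promoter region was shared with another protein-coding gene in 6 members (17.1%), beside 26.2% of all promoters. The pairs were SESN1 with CEP57L1, XPC with LSM3, POLH with XPO5, TRIAP1 with GATC, FAS with ACTA2, and TP53INP1 with NDUFAF6. In these the count belongs to both genes and cannot be divided. LSM3 encodes an RNA-processing subunit, XPO5 the exporter of miRNA precursors, GATC a subunit of the mitochondrial amidotransferase, and CEP57L1 a centrosomal protein. ACTA2 encodes smooth muscle actin, and NDUFAF6 an assembly factor of respiratory complex I. Noncoding genes started in the regions of 5 members (14.3%), namely BTG1, BTG2, CCNG1, FAS and TNFRSF10B. Their counts may include signal of the noncoding genes, and the share over all promoters was not computed.

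The next comparison set each member beside promoters of similar whole-region count, in 20 groups of 754 or 755 promoters. Members were wider than the median of their group in 21 of 35 genes (60.0%). BTG2 measured 7080 bp against a median of 3900 bp, FBXW7 4842 bp against 2807 bp, and PHLDA3 1159 bp against 671 bp. BTG1 measured 15955 bp against 6139 bp, in the group of highest counts, which is also the most spread. MDM4, at 2310 bp against 3338 bp, and SESN2, at 2050 bp against 2949 bp, were narrower. Width and whole-region count went together across genes (Spearman rho 0.89 over the 35 members and 0.88 over all promoters, a description only, since a count is summed over the width).

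**Figure D4:**
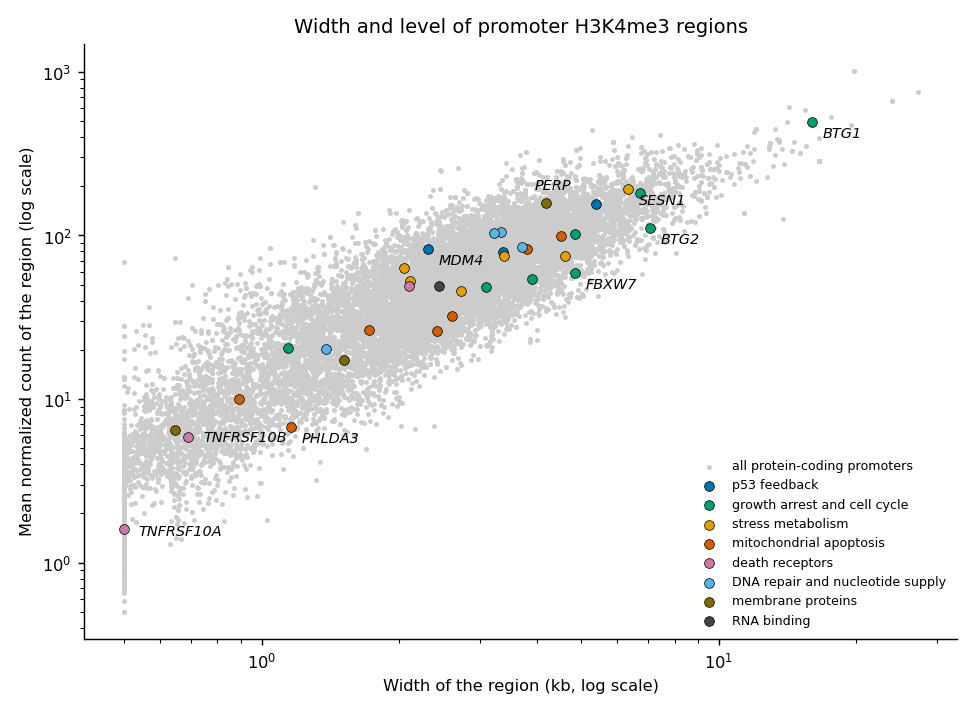
Width of the promoter region (kb, log scale) against its mean normalized H3K4me3 count (log scale) for all 15085 promoters (grey) and the 35 members (coloured by role). BTG1, at 15955 bp and 497, lies at the upper end of the cloud, and BTG2 and FBXW7 lie on its wide, sparse side.

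CpG content varied widely among the members. The ratio of observed to expected CpG in the region had a median of 0.62 (0.25 to 0.82) against 0.59 over all promoters, and it was above the median of similar promoters in 23 of 35 members (65.7%). GC content was above it in 20 of 35. The most CpG-rich regions were those of MDM2 (0.82), TNFRSF10B (0.82), PHLDA3 (0.81) and POLH (0.80). The poorest were those of FBXW7 (0.25, with a GC content of 31.9%) and TP53INP1 (0.30). Among these, the regions of FBXW7, TP53INP1 and TNFRSF10B do not cover the canonical start. The CpG ratio and the level per kb had a Spearman rho of -0.10 across the 35 members and 0.08 across all promoters. For GC content and level per kb, rho was -0.35 over the 35 members and -0.34 over all promoters. These correlations run across genes measured in the same libraries and are descriptions only.

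RefSeq (GRCh38.p14) gave 250 bases before the start for 29 of the 35 members; GADD45A, PHLDA3, TNFRSF10A, TNFRSF10B, RRM2B and TP53INP1 are named only. In these 29 the median number of CpG was 24, against 21 over 11941 genes. PERP and NINJ1 are shown because they have the highest and the lowest level per kb among the 29, 37.8 and 9.97, with nearly the same number of CpG, 34 and 32. CpG are in capitals, in the direction of the gene.
PERP, chr6:138107420-138107669, minus strand: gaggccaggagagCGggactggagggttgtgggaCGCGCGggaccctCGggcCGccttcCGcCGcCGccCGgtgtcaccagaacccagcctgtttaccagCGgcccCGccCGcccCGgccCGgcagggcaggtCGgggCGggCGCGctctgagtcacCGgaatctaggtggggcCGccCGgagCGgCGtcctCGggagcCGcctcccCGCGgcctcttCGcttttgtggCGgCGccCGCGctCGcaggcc
NINJ1, chr9:93134252-93134501, minus strand: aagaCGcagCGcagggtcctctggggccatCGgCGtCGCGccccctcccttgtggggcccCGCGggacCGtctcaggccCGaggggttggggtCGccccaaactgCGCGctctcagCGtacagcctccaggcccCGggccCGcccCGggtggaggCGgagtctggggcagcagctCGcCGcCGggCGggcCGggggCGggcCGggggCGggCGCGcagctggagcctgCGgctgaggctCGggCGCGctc
In CpG number PERP exceeded 88.5% and NINJ1 84.0% of the genes with an entry. BBC3 and TP53I3 had 4 and 6 CpG, the fewest of the 29, and POLH and PLK2 had 38 and 37, the most. The BBC3 start of RefSeq lay 1468 bp from the canonical one of GENCODE.

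The wider p53 pathway stood near the level of promoters in general. Of 189 genes used here from the study's Hallmark p53 pathway list, 23 are members and 166 had a promoter region. In those 166 the median was 18.4 per kb, and 78 (47.0%) were above the median of all promoters per kb. With the members left out, 64 of 143 (44.8%) were. The 3 highest by whole-region count, BTG1, SESN1 and PLK2, are all members. The 3 lowest were NOTCH1 (1.88), PROCR (2.21) and MXD4 (2.55), a Notch receptor, the receptor of activated protein C and a MAX partner. CDKN1A, which encodes the CDK inhibitor p21 and is the best known p53 target, had 11.7 per kb, the 22.6th percentile of all promoters, in a region of 1038 bp with a count of 12.1.

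By contrast, genes that act on the p53 protein, listed with its relatives, were mostly above the middle. Of 16, 15 had a region, with a median of 26.9 per kb, and 13 of the 15 (86.7%) were above the median of all promoters. The kinases that signal damage to it stood at similar levels, with 34.9 per kb at CHEK1, 30.2 per kb at ATM, 30.0 per kb at CHEK2 and 26.9 per kb at ATR. HIPK2, another p53 kinase, had 42.7 per kb, and TP53BP1, a break-binding partner of p53, 39.4 per kb. The ubiquitin ligases COP1 and RCHY1 had 32.0 and 26.4 per kb, the deubiquitinase USP7 29.6 per kb, the acetyltransferases EP300, CREBBP and KAT5 25.7, 23.2 and 17.3 per kb, the deacetylase SIRT1 21.8 per kb and DAXX 19.8 per kb. The p53 relatives differed, with 6.15 per kb at TP73 and no region at TP63.

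The cells carried the mark at beta cell genes. Of 15 beta cell markers, 14 had a region and 10 of these were above the median of all promoters per kb. PAX6, ISL1 and NEUROD1 had 27.8, 38.1 and 28.8 per kb over regions of 13405 bp and more, while INS had 14.0 per kb and IAPP 7.56 per kb, and MAFA had no region. Of 18 markers of other cell types, 10 had no region and 7 of the other 8 were below the median. CD68 had 31.9 per kb, and the remaining 7, PRSS1, CPA1, COL1A1, COL3A1, GCG, SST and PECAM1, had between 2.24 and 15.3 per kb. Starts of neighbouring genes in the marker regions are not listed here, so the CD68 value may belong to another gene.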

How the data were processed

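H3K4me3 was measured by MINT-ChIP, in which chromatin of each sample is cut by nuclease, barcoded, pooled and immunoprecipitated together. Per the study's methods, reads were aligned to hg38 with Bowtie2 and peaks were found with HOMER; versions, the merging of peaks, read counting and duplicate removal are not given in the sources used here. The authors deposited 1 table with 97545 regions. Its signal column, in the layout of DESeq2, is the mean normalized count of a region over the samples, as deposited by the authors, with no SD and without naming the samples that entered it, and it was the only measurement used. Its other columns hold the authors' comparison of senescent with non-senescent cells (fold change, error, test score and p-values) and were not used. Depth per sample is unknown, and no interval or test was computed. The 16 samples of other marks were not analysed here, and 1 gene of the lists is not reported here.

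Start sites came from all transcripts of protein-coding genes of GENCODE release 44, joined by gene symbol, and the region with the highest value within 2 kb was kept. Positions are printed as the table gives them; it does not state whether they count from 0 or 1. Width is end minus start. GC content and the CpG ratio were computed over the region from hg38. The p53 search used the published half-site consensus of 10 letters in a window of 4001 bases, with its settings in the text. Python 3.11.15, numpy 2.4.6, pandas 2.3.3, scipy 1.17.1 and matplotlib 3.10.9 were used. Linking and motif search were tested on simulated data. The members and lists were chosen with earlier results of these data known. The genes named are the 35 members, genes sharing their regions, CDKN1A, the 3 highest and 3 lowest of the Hallmark list, regulators of p53, and cell type markers. Alternatives covered the window, the start sites, the choice of region, the scale and the search settings.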

Additional observations from a re-analysis of the deposited data

How the results depend on the processing

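No paired analysis was possible because the table gives 1 mean over all samples and no column carries a sample. For the same reason no sample could be left out. All 35 members kept a region with a 1 kb window and with canonical starts only, and 34 had one with a mean count of at least 5, TNFRSF10A being the exception. The number of members above the median of all promoters was 21, and between 18 (per kb of region, and summed over all regions) and 24 (each region counted once) under the alternatives. Their median percentile by whole-region count was 57.2, and between 54.2 and 63.9 under the alternatives. Members wider than similar promoters numbered 21, and those with a higher CpG ratio 23, with 20 as with 10 groups. Single genes depended on which region stood for them, or on the values of the other promoters. Taking the region whose centre was nearest a start moved MDM4 (12.1), TIGAR (34.0), FBXW7 (43.4) and SESN2 (46.2) below the median of all promoters. FAS (59.4), GADD45B (59.4) and TP53I3 (57.4) went above it. They have 1 region each, so their own values were unchanged and only those of other promoters moved. Comparing per kb moved BTG2, CCNG1, FAS, FBXW7 and TP53INP1 across the median, and canonical starts only moved FBXW7. Summing over regions moved CCNG1, FDXR and ZMAT3, which also have 1 region each. A minimum mean count moved FDXR and ZMAT3, and the 1 kb window moved ZMAT3, again with their own values unchanged. Using only protein-coding transcripts, chosen after seeing the data, moved none across the median. With no depth per sample, values near that of TNFRSF10A cannot be told from background reads.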
